A study of Mus musculus with 12 samples.

Results

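NF-κB is a family of dimeric transcription factors, and the 10 genes described here encode its subunits, proteins that shut it off again, and related IκB proteins that act in the nucleus. They were chosen by symbol from the 32688 genes of the count table. The 5 subunit genes are Nfkb1, Nfkb2, Rela, Relb and Rel, and the 5 genes of feedback inhibitors and related IκB proteins are Nfkbia, Nfkbie, Nfkbiz, Tnfaip3 and Bcl3. The latter 5 are called inhibitors below for short, although Nfkbiz and Bcl3 encode the related IκB proteins that act in the nucleus. All 10 passed the filter on low counts, which kept 18066 genes. RNA was sequenced from RAW264.7 cells, a mouse macrophage line, in 4 groups of 3 libraries. Null cells were the reference line, and TFEB/TFE3 double-knockout (DKO) cells had been edited by CRISPR in the genes of both transcription factors. Each line was analysed as control cells and after 8 h in etoposide at 100 µM, a topoisomerase II poison that breaks DNA. The control cells were untreated according to the labels, while the methods name the solvent DMSO as the control. Null and DKO were each represented by 1 line, so that a difference between them could not be told apart from a difference between any 2 lines. The study describes its samples as independent without saying what separated them, such as cultures or days. The p-values rest on the spread between libraries of a group, pooled over the 4 groups, and this spread may be partly technical.

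In resting cells, IκB proteins hold NF-κB dimers in the cytoplasm. Inflammatory receptors and DNA breaks both activate the IκB kinase (IKK), which marks IκBα for destruction and frees the dimers to enter the nucleus. There they switch on genes for cytokines, survival factors and their own inhibitors, so that the response is brief. In macrophages this circuit governs the first wave of inflammatory genes.

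The labels were checked first. Tfe3 stood at 104.5 ± 14.8 CPM (counts scaled to a common library size, SD, n = 3) in Null control and 37.8 ± 5.71 CPM in DKO control cells, and Tfeb at 16.8 ± 0.286 and 4.40 ± 1.12 CPM. After etoposide the Tfeb level of DKO cells was 4.34 CPM against 7.56 for the treated Null cells, a log2 difference of -0.79. RNA of both edited genes therefore remained in DKO cells. Cdkn1a, a p53 target, rose after etoposide in both lines, by 3.03 in Null and 1.59 in DKO cells on the log2 scale. Total counts ran from 29837255 to 61809316 per library, and a member gene held 203 to 16926 counts in a library. All 8 macrophage markers were detected in each group, with summed levels of 4193 to 5132 CPM over the 12 libraries. Single markers moved under this sum. After etoposide 1 was higher and 4 were lower in Null cells, and 4 were higher and 3 lower in DKO cells. These were 62.5% and 87.5% of the markers, beside 39.6% and 39.3% of all genes (limma-trend adjusted p below 0.05). Between untreated lines 2 were higher and 4 lower in DKO cells, and between treated lines 2 were higher and 2 lower. These were 75% and 50% of the markers, beside 19.3% and 33.6% of all genes. In Null cells Csf1r fell from 1751 to 765 CPM while Itgam rose from 224 to 449 CPM. Up to 63.0% of the counts of Itgam may come from a gene that overlaps it on the same strand. In DKO cells Fcgr1 fell from 29.1 to 5.13 CPM. The part of such changes in the members' results was not tested. 8 fibroblast markers, examined because the titles of the DKO etoposide samples contain the word MEFs, summed to 0.646 to 0.928 CPM in the Null control libraries and to 1.91 to 2.04 CPM after etoposide. The DKO libraries gave 0.153 to 0.263 CPM as controls and 1.01 to 1.20 CPM when treated. Of the 8 markers, 7 had no count in untreated Null and 6 in untreated DKO libraries, and 1 had none in the treated libraries of each line. In bulk RNA, fewer cells of a type and less RNA per cell cannot be told apart.

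DNA around the RefSeq starts of the members was examined for the letters that NF-κB and TFEB/TFE3 are known to bind. RefSeq promoter windows (build GRCm38.p6, 250 bases before to 50 after each start) were matched by symbol for 7 of the 10 members. Nfkb1, Relb and Nfkbiz had none. A strict κB motif, GGGNNTTTCC, was searched on both strands and occurred in 1.63% of 32851 windows. It was found in Nfkb2, Rel, Nfkbia and Tnfaip3, and was not found in the windows of Rela, Nfkbie and Bcl3. A looser form, GGGNNNNNCC, which includes every strict match, occurred in 50.8% of windows and in all 7 members. The extended E-box GTCACGTGAC, which contains the E-box CACGTG and is the CLEAR element bound by TFEB and TFE3, occurred in 0.326% of windows. Of the members with a window, Tnfaip3 was the one that held it. CACGTG alone occurred in 7.15% of windows and, among the members, in the same place in Tnfaip3. The sequences below show the strict κB and extended E-box matches in capitals, in the direction of transcription. Those of Tnfaip3 (chr10:19015412-19015531, minus strand), Nfkbia (chr12:55492649-55492768, minus strand) and Rel (chr11:23770971-23771090, minus strand) are the 120 bases from -121 to -2 relative to the start. The RefSeq start used for Tnfaip3 lies inside the gene span that GENCODE M21 annotates, so the stretch shown for it lies within that span, while those of Nfkbia and Rel lie outside theirs. For Nfkb2, whose 3 RefSeq starts also lie inside its gene span, each distinct match is shown with 10 bases on either side (chr19:46304716-46304745 and chr19:46305695-46305724, plus strand).
Tnfaip3: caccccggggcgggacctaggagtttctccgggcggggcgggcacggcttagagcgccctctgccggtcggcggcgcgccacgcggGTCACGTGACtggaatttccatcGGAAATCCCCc
Nfkbia: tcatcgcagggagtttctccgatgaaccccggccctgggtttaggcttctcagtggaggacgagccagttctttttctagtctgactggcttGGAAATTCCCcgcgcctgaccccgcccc
Rel: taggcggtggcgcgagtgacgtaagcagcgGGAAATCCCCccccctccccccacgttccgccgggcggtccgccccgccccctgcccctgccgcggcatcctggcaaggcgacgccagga
Nfkb2, first match: ggggccgaaaGGGGCTTTCCcggctggagc
Nfkb2, second match: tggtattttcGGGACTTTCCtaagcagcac
In Tnfaip3 the E-box lay at -35 to -26 and the κB match at -12 to -3. The 4 genes with a strict κB match did not share a pattern of expression, as the values that follow show. A match in these letters is a description and not a measured binding site.

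Tnfaip3 encodes A20, a ubiquitin-editing enzyme that stops signalling upstream of IKK. It lies at chr10:19000910-19015657 on the minus strand (GENCODE M21, GRCm38). Among the 10 members it was the one called in opposite directions in the 2 lines. The 3 Null control libraries gave 11.997, 11.488 and 11.708 CPM, and the 3 Null etoposide libraries 15.7, 15.5 and 16.3 CPM. The DKO control libraries gave 7.19, 5.73 and 6.59 CPM, and the DKO etoposide libraries 3.69, 4.09 and 3.49 CPM. No 2 of the 4 groups overlapped. Tnfaip3 rose 1.35-fold in Null cells after etoposide (log2 difference 0.43, SE 0.103, limma-trend adjusted p = 0.00545) and fell by 0.78 on the log2 scale in DKO cells (SE 0.103, limma-trend adjusted p = 6.89e-05). The difference between these responses was -1.21 (SE 0.146, limma-trend adjusted p = 0.000159). DKO cells thus held 1.80-fold less Tnfaip3 RNA than Null cells before treatment and 4.17-fold less after it (limma-trend adjusted p = 6.22e-05 and 1.33e-08). Each of these calls was also made in every alternative fit and with any 1 library left out.

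Nfkbiz had the widest range of any member. It encodes IκBζ, an inducible nuclear IκB protein that works mainly as a cofactor, switching on a second wave of inflammatory genes rather than holding dimers in the cytoplasm. The control libraries of Null cells gave 22.7, 18.5 and 18.6 CPM, and those of DKO cells 15.7, 21.9 and 20.95 CPM. After etoposide the Null libraries gave 80.9, 74.8 and 79.3 CPM, and the DKO libraries 168, 165 and 184 CPM. The lines overlapped before treatment and stood well apart after it. Nfkbiz rose 3.94-fold in Null cells (log2 difference 1.98, SE 0.121, limma-trend adjusted p = 1.12e-07) and 8.89-fold in DKO cells (3.15, limma-trend adjusted p = 8.85e-10). The response of DKO cells was larger by 1.17 on the log2 scale (SE 0.172, limma-trend adjusted p = 0.000741). Before treatment the difference between the lines was -0.04 (95% interval -0.30 to 0.23, limma-trend adjusted p = 0.881), and with library weights it was called at 0.19 in the opposite direction (0.0194).

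Bcl3 encodes another nuclear IκB protein, which binds the p50 and p52 subunits on DNA. Its Null control libraries gave 15.045, 10.6 and 7.48 CPM and its Null etoposide libraries 15.5, 15.9 and 19.0 CPM. The DKO control libraries gave 11.1, 16.8 and 18.5 CPM and the DKO etoposide libraries 45.2, 33.2 and 52.3 CPM. The DKO etoposide group lay above all other libraries. Bcl3 rose 2.83-fold in DKO cells after etoposide (log2 difference 1.501, SE 0.254, limma-trend adjusted p = 0.000483), and after etoposide it was 2.56-fold higher in DKO than in Null cells (1.35, limma-trend adjusted p = 0.00122). In Null cells its difference of 0.65 did not pass the threshold (limma-trend adjusted p = 0.0593), and it passed at 0.90 without Null control 1 and at 0.64 without DKO control 1 (limma-trend adjusted p = 0.0115 and 0.0398), and at 0.71 with library weights (0.00017). The responses of the 2 lines differed by 0.85, with a 95% interval of 0.07 to 1.63 (limma-trend adjusted p = 0.196). At most 1.68% of the counts of Bcl3 could have come from an antisense gene that shares exon sequence.

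Nfkbia encodes IκBα, the inhibitor that NF-κB itself rapidly restores, and lies at chr12:55489410-55492647 on the minus strand. Null control libraries gave 142, 105 and 107 CPM and Null etoposide libraries 144, 141 and 152 CPM. DKO control libraries gave 116, 158 and 173 CPM and DKO etoposide libraries 260, 233 and 278 CPM. As for Bcl3, only the DKO etoposide group stood clear of the rest. Nfkbia rose 1.74-fold in DKO cells (log2 difference 0.80, SE 0.147, limma-trend adjusted p = 9e-04), and its difference in Null cells was 0.32 (limma-trend adjusted p = 0.104). The latter passed the threshold at 0.46 without Null control 1 and at 0.31 without DKO control 1 (limma-trend adjusted p = 0.0222 and 0.039), and at 0.47 with library weights (6.05e-06). After etoposide Nfkbia was 1.76-fold higher in DKO than in Null cells (0.82, limma-trend adjusted p = 0.000948), although the responses themselves did not differ beyond the threshold (0.48, 95% interval 0.02 to 0.93, limma-trend adjusted p = 0.212).

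Nfkbie encodes IκBε, which acts later than IκBα. Its Null control libraries gave 11.024, 11.5 and 9.85 CPM and its Null etoposide libraries 23.4, 26.2 and 23.7 CPM. The DKO control libraries gave 13.8, 13.1 and 12.1 CPM and the DKO etoposide libraries 37.8, 34.9 and 31.8 CPM. Every treated library lay above every control library. Nfkbie rose 2.26-fold in Null cells (log2 difference 1.17, SE 0.0961, limma-trend adjusted p = 1.25e-06) and 2.68-fold in DKO cells (1.42, limma-trend adjusted p = 1.75e-07). The responses differed by 0.25 with a 95% interval of -0.05 to 0.54 (limma-trend adjusted p = 0.35), and after etoposide the DKO level was 1.42-fold higher (0.51, limma-trend adjusted p = 0.00127).

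**Figure D1:**
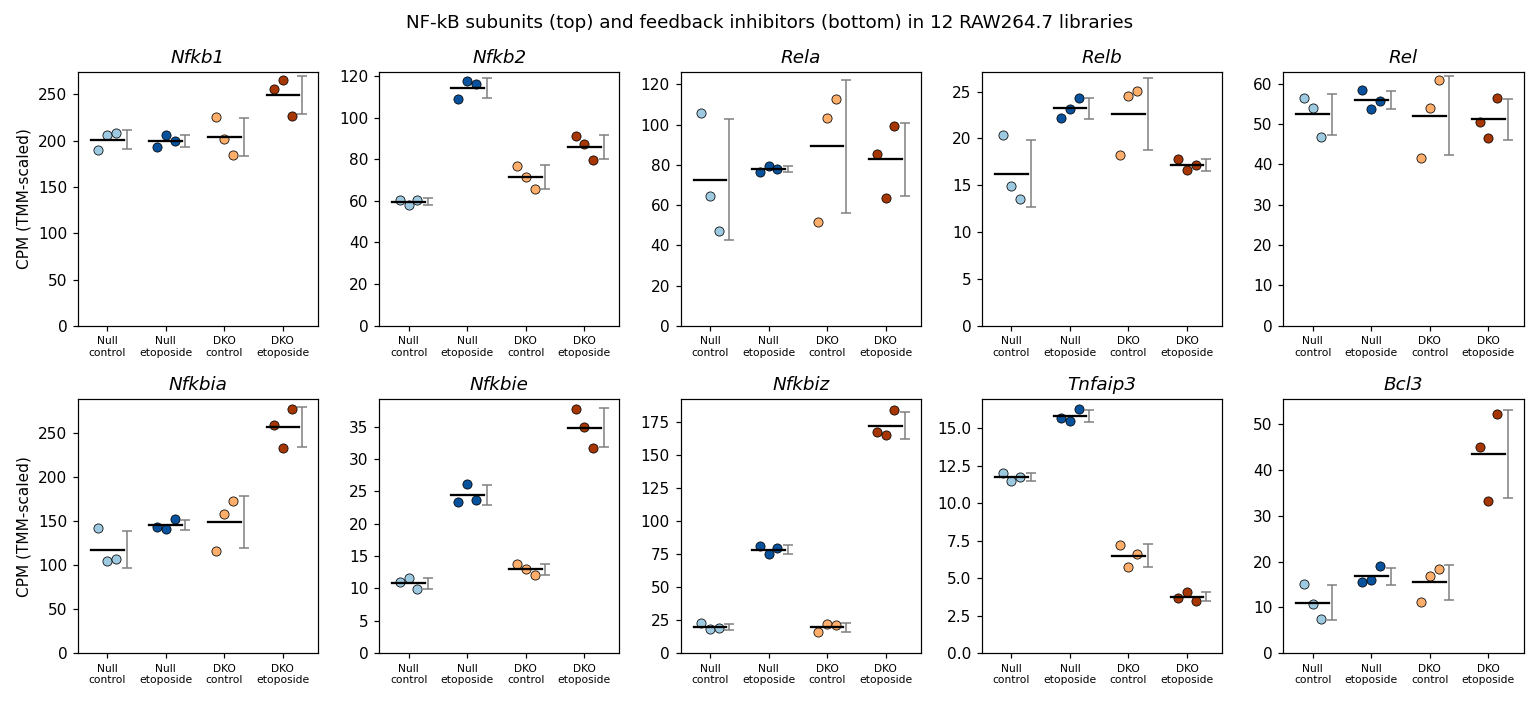
CPM of the 10 genes in each library, on linear axes that start at 0, with 1 panel a gene, subunits above and inhibitors below. Points are libraries, black bars are means and grey bars are 1 SD (n = 3). Tnfaip3 falls to 3.49 to 4.09 CPM in the DKO etoposide libraries, where Nfkbiz reaches 165 to 184 CPM, while the libraries of Rela scatter within 3 of the 4 groups.

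Of the subunits, Nfkb2 responded most to etoposide in Null cells. It encodes p100, which is processed to p52 in the non-canonical pathway, and lies at chr19:46304320-46312385 on the plus strand. Null control libraries gave 60.4, 57.8 and 60.6 CPM and Null etoposide libraries 109, 118 and 116 CPM. DKO control libraries gave 76.9, 71.6 and 65.6 CPM and DKO etoposide libraries 91.0, 87.2 and 79.7 CPM. The 4 groups did not overlap, and the DKO groups lay between the Null groups. Nfkb2 rose 1.91-fold in Null cells (log2 difference 0.94, SE 0.0768, limma-trend adjusted p = 1.27e-06) and 1.20-fold in DKO cells (0.27, limma-trend adjusted p = 0.0144). The response of DKO cells was smaller by 0.67 on the log2 scale (difference -0.67, SE 0.109, limma-trend adjusted p = 0.00166), and after etoposide Nfkb2 was 1.33-fold lower in DKO than in Null cells (-0.41, limma-trend adjusted p = 0.00122). The small rise in DKO cells was 0.06 after a correction for GC content and length (limma-trend adjusted p = 0.567). It also missed the threshold without DKO control 3 (0.21), without DKO etoposide 1 (0.24) and with only the 2 groups compared (0.26, limma-trend adjusted p = 0.0632).

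Relb encodes the partner of p52 in the same pathway. Null control libraries gave 20.3, 14.9 and 13.5 CPM and Null etoposide libraries 22.1, 23.2 and 24.3 CPM. DKO control libraries gave 18.2, 24.6 and 25.0 CPM and DKO etoposide libraries 17.8, 16.6 and 17.1 CPM. In each line the treated and control libraries did not overlap, with the treated libraries above in Null cells and below in DKO cells. Relb rose 1.45-fold in Null cells (log2 difference 0.53, SE 0.15, limma-trend adjusted p = 0.0132), and its difference in DKO cells was -0.38 (limma-trend adjusted p = 0.0626). The 2 responses differed by -0.92 (SE 0.212, limma-trend adjusted p = 0.0162). The rise in Null cells missed the threshold without Null control 2 (0.48, limma-trend adjusted p = 0.0543) and without Null control 3 (0.41, 0.0528), and was 0.32 with the correction for GC content and length (0.069). The difference in DKO cells passed the threshold without DKO control 1 (-0.52, 0.00847), Null control 1 (-0.38, 0.0193) or Null control 3 (-0.38, 0.044), with the GC content and length correction (-0.59, 0.00294) and with library weights (-0.47, 0.000172). The difference between the responses missed it without DKO control 2 (-0.83, limma-trend adjusted p = 0.0544) and with the replicate number as a block (-0.92, 0.0501).

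Nfkb1 encodes p105 and its product p50, and had 184 to 226 CPM in the 9 libraries other than those of DKO cells after etoposide. The DKO etoposide libraries gave 256, 266 and 226 CPM. They lay above all others, the lowest of them by less than 1 CPM. Nfkb1 rose 1.22-fold in DKO cells (log2 difference 0.29, limma-trend adjusted p = 0.0193), while the difference in Null cells was -0.01 (95% interval -0.20 to 0.18, limma-trend adjusted p = 0.947). The responses differed by 0.30 (limma-trend adjusted p = 0.184), and by 0.40 without DKO control 1 (0.0392). The rise in DKO cells missed the threshold without DKO control 3 (0.22), DKO etoposide 1 (0.28) or DKO etoposide 2 (0.25), and with only the 2 groups compared (0.285, limma-trend adjusted p = 0.077).

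Rela encodes p65, the subunit that carries most of the activating function, and Rel encodes c-Rel, which is abundant in blood cells. Neither passed the threshold in any comparison with libraries weighted equally, and with library weights Rela was called higher in DKO than in Null control cells (log2 difference 0.65 in place of 0.30, limma-trend adjusted p = 0.00542). The Null control libraries of Rela gave 106, 64.5 and 47.2 CPM and the DKO control libraries 51.4, 103 and 113 CPM. The Null etoposide libraries gave 76.5, 79.3 and 78.0 CPM, and the DKO etoposide libraries 85.4, 63.5 and 99.3 CPM. The coefficient of variation was 41.5% and 37.1% in the control groups of Null and DKO cells against 1.83% and 21.8% after etoposide, and the 95% interval for etoposide in Null cells ran from -0.49 to 0.86 on the log2 scale. Rel ranged from 41.5 to 60.8 CPM over all 12 libraries, and its group means differed by 0.13 on the log2 scale from the lowest to the highest, the narrowest range of the 10 genes.

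The spread of Rela was shared by other members. Relative to its group mean, Null control 1 was high in Rela, Bcl3, Relb and Nfkbia (0.63, 0.50, 0.34 and 0.28 on the log2 scale) and Null control 3 was low in the same genes (-0.54, -0.50, -0.24 and -0.13). DKO control 1 was low in all 4, at -0.71, -0.45, -0.30 and -0.34, and in Rel (-0.31) and Nfkbiz (-0.30). Among treated libraries, DKO etoposide 2 was low in Rela, Bcl3 and Nfkbia (-0.357, -0.365 and -0.138) and DKO etoposide 3 was high in them (0.288, 0.289 and 0.118). Relb deviated little in these libraries (-0.0509 and -0.00395). DKO control 1 also stood apart over all genes: its squared differences from DKO control 2 and 3 had medians of 57.2 and 70.3 times the counting error, against 7.42 between the latter pair. Nfkb1, Nfkb2, Nfkbie and Tnfaip3 had deviations within 0.18 in every library. For Null cells the median SD of all genes on the log2 scale was 0.209 among control and 0.0901 among treated libraries, where Rela had 0.586 and 0.0264. For DKO cells these medians were 0.235 and 0.155, where Rela had 0.621 and 0.328. The part of this spread in the results was not tested beyond leaving out each library.

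**Figure D2:**
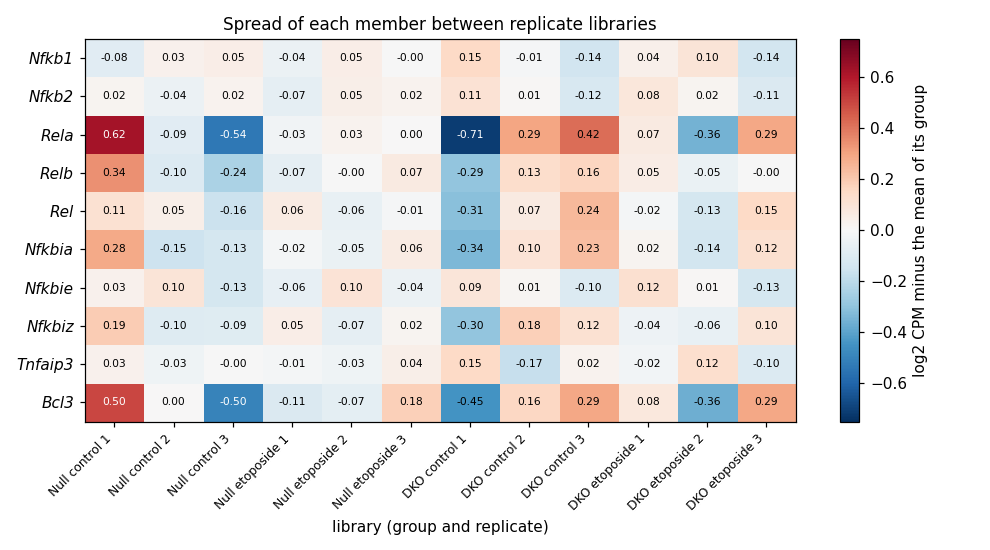
Each cell gives the log2 CPM of a gene (rows) in a library (columns) minus the mean of its group, with red above and blue below the mean. Rela, Bcl3, Relb and Nfkbia are high together in Null control 1 and low together in Null control 3 and DKO control 1, while the 3 Null etoposide libraries differ little.

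Etoposide in Null cells raised 5 of the 10 members (Nfkb2, Relb, Nfkbie, Nfkbiz and Tnfaip3) and lowered 0, beside 20.9% and 18.7% of all tested genes called higher and lower by limma-trend (39.6% in either direction). No member was lower at an unadjusted p under 0.05, and edgeR and DESeq2 also called 5 higher and 0 lower. The 3 treated and 3 control libraries did not overlap for 6 members, beside 53% of all genes. The median log2 difference of the members was 0.48, against 0.03 over all genes. Nfkbiz lay above 97.2% of genes.

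Etoposide in DKO cells raised 6 members (Nfkb1, Nfkb2, Nfkbia, Nfkbie, Nfkbiz and Bcl3) and lowered 1, Tnfaip3, beside 20.2% and 19.1% of all genes (39.3% in either direction). All 5 of the genes called inhibitors passed the threshold, including Nfkbiz and Bcl3 with their nuclear products, against 2 of the 5 subunits. Libraries did not overlap for 8 members, beside 46.4% of all genes. The inhibitors had a median log2 difference of 1.42 and the subunits one of -0.01, against 0.03 over all genes. Nfkbiz lay above 99.5% of genes and Tnfaip3 above 10.3%.

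**Figure D3:**
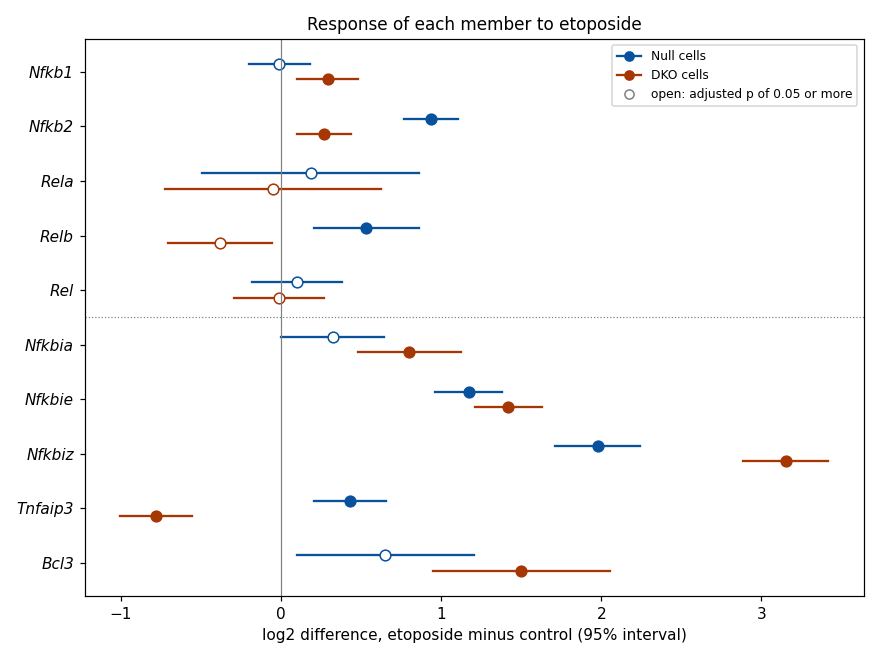
Log2 difference between etoposide and control libraries (x axis) for each gene in Null cells (blue) and DKO cells (brown), with 95% intervals from limma-trend, subunits above the dotted line and inhibitors below it. Filled points passed an adjusted p of 0.05. Tnfaip3 lies right of 0 in Null cells (0.43) and left of it in DKO cells (-0.78), and Nfkbiz lies farthest right in both (1.98 and 3.15).

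The responses of the 2 lines differed for 4 members, of which 1 (Nfkbiz) was higher in DKO cells and 3 (Tnfaip3, Relb and Nfkb2) were lower, beside 3.07% and 6.39% of all genes (9.45% in either direction). This comparison uses all 12 libraries and asks whether the DKO line responded to etoposide differently from the Null line. With 1 line each, it cannot assign a difference to the knockout. The remaining 6 members had differences of -0.24 to 0.85. Those of Bcl3, Nfkbia and Nfkb1 had intervals above 0 before adjustment over all genes and missed the threshold after it.

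Without treatment, the lines differed for 3 members. Nfkb2 and Relb were higher in DKO cells (log2 differences 0.26 and 0.48, limma-trend adjusted p = 0.0343 and 0.0404) and Tnfaip3 was lower (-0.85), beside 10.9% and 8.39% of all genes (19.3% in either direction). The calls for Nfkb2 and Relb were weak. Each was lost in 10 of the 12 fits that left out 1 library, that of Relb remaining without Null control 1 or DKO control 1 and that of Nfkb2 without DKO control 3 or DKO etoposide 3, while Tnfaip3 was called in all 12. Without DKO control 1 the call for Nfkbia was gained (0.49, limma-trend adjusted p = 0.0119), and without Null control 1 those for Nfkbia (0.48, 0.0333) and Bcl3 (0.76, 0.0471). Libraries of the 2 lines did not overlap for 3 members (Nfkb2, Nfkbie and Tnfaip3), beside 27.6% of all genes.

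After etoposide the lines differed for 8 members. Nfkb1, Nfkbia, Nfkbie, Nfkbiz and Bcl3 were higher in DKO cells, and Nfkb2, Relb and Tnfaip3 were lower, beside 15.9% and 17.8% of all genes (33.6% in either direction). The inhibitors were thus split, with 4 higher and Tnfaip3 lower. Libraries did not overlap for these 8 members, beside 55.6% of all genes. Tnfaip3 lay above 2.4% of genes, and Bcl3 and Nfkbiz above 97.7% and 96.9%. The call for Relb (-0.43, limma-trend adjusted p = 0.0427) was lost in 8 of the 12 fits that left out 1 library, all but those without Null control 1, Null control 3, DKO control 1 or DKO control 3. That for Nfkb1 (0.32, limma-trend adjusted p = 0.0149) was lost without Null etoposide 1 (0.30), Null etoposide 3 (0.31) or DKO etoposide 2 (0.27), and was 0.22 with the correction for GC content and length (limma-trend adjusted p = 0.0992).

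**Figure D4:**
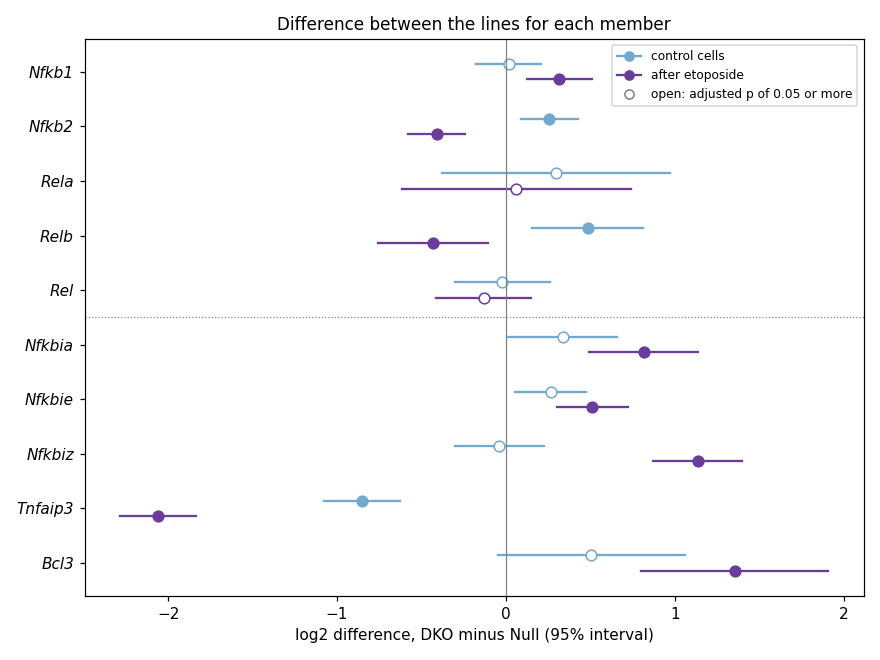
Log2 difference between DKO and Null libraries (x axis) for each gene in control cells (light blue) and after etoposide (purple), with 95% intervals from limma-trend. Filled points passed an adjusted p of 0.05. Tnfaip3 is left of 0 in both states (-0.85 and -2.06), and Nfkbiz, Bcl3 and Nfkbia are right of 0 after etoposide (1.14, 1.35 and 0.82).

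Levels were compared between genes as CPM per kb of exon. Nfkbia was the most abundant member in each group, going from 73.1 CPM per kb in untreated Null cells to 90.5 with the drug, and from 92.6 to 160 CPM per kb in DKO cells. Tnfaip3 was the least abundant in each, at 1.62 and 2.19 CPM per kb in Null and 0.900 and 0.520 in DKO cells, and did not overlap the next gene in any group. Rela had the highest mean of the subunits in each group, from 23.6 to 29.0 CPM per kb, although its range overlapped that of the next subunit every time. Relb had the lowest, from 4.18 to 5.98 CPM per kb, with a range that overlapped Rel in DKO control cells. Nfkb2 stood below Nfkb1 in Null control cells (13.01 against 16.7 CPM per kb) and above it after etoposide (24.9 against 16.6), where its range overlapped that of Rela. Nfkbiz moved from the 8th to the 5th place of the 10 genes in Null cells and from the 9th to the 2nd in DKO cells. After etoposide in DKO cells it stood at 34.3 CPM per kb, above the range of every subunit.

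**Figure D5:**
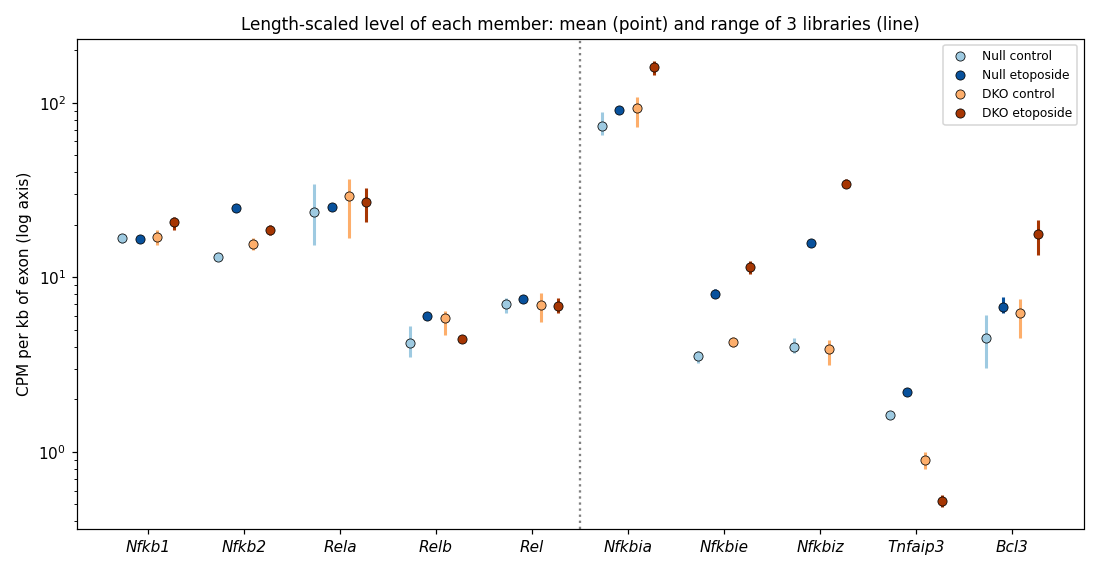
Level of each gene in CPM per kb of exon, on a log axis, in the 4 groups. Points are means and lines span the 3 libraries. Nfkbia lies at the top in each group (73.1 to 160 CPM per kb) and Tnfaip3 at the bottom (0.520 to 2.19 CPM per kb).

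The remaining genes of the pathway were taken as lists. Of the other 2 IκB genes, Nfkbid, which encodes the nuclear protein IκBNS, rose in Null cells (log2 difference 0.25, limma-trend adjusted p = 0.026) and more in DKO cells (0.89, 2.39e-06), with a difference between the responses of 0.64 (0.00296). Nfkbib, which encodes IκBβ, rose in Null cells (0.38, limma-trend adjusted p = 0.0312) and stood at 0.27 in DKO cells (0.114). Both calls in Null cells were lost in 6 of 12 fits that left out 1 library (Null control 2 and 3, each Null etoposide library and DKO etoposide 1), down to 0.21 for Nfkbid and 0.24 for Nfkbib. They were also lost with no filter, with the replicate block and with the GC content and length correction, which gave 0.08 for Nfkbid and 0.16 for Nfkbib. Without treatment 0 of these 2 genes differed between the lines by limma-trend, edgeR or DESeq2, beside 19.3% of all genes by limma-trend. At an unadjusted p under 0.05, or by limma-trend without Null control 1 or DKO control 1, 1 of them did.

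Of 21 IKK kinases and upstream adaptors, 7 rose and 1 fell in Null cells after etoposide, and 8 rose and 2 fell in DKO cells, with medians of 0.09 and -0.02 on the log2 scale. The list had 38.1% and 47.6% of its genes called in either direction, beside 39.6% and 39.3% of all genes. Ikbke, a kinase related to IKK that NF-κB itself induces, rose by 1.54 in Null and 1.58 in DKO cells, and Map3k7, which encodes the IKK-activating kinase TAK1, by 0.94 and 0.57. Traf3, which holds the non-canonical pathway in check, fell by 0.42 in Null cells and was at -0.13 in DKO cells. Bcl10 and Traf2 fell in DKO cells by 0.33 and 0.29, and both missed the threshold without DKO control 1 (-0.20 and -0.21), DKO etoposide 2 (-0.36 and -0.24) or DKO etoposide 3 (-0.29 and -0.26), as Bcl10 did in 6 further fits without 1 library. Both were also lost with library size alone (-0.27 and -0.23) and with only the 2 groups compared, Bcl10 with no filter and with the replicate block, and Traf2 with library weights (-0.16). In this list 0 genes responded differently in the 2 lines by limma-trend, beside 9.45% of all genes. By edgeR 0 did, by DESeq2 1 did, and 3 did at an unadjusted p under 0.05. By limma-trend 2 were called without Null control 3, 1 without DKO control 1 and 6 with library weights. DKO cells held more Myd88, the adaptor of most Toll-like receptors, without treatment (0.86) and after etoposide (0.93), and less Ikbke (-0.49 and -0.46). Birc2, which encodes the ubiquitin ligase cIAP1, was higher in untreated DKO cells (0.47), and was not called with only the 2 groups compared (limma-trend adjusted p = 0.101). After etoposide Traf3 was higher (0.49) and Traf2 lower (-0.47) in DKO cells. Without treatment 2 genes of the list were higher and 1 lower in DKO cells (14.3% called, beside 19.3% of all genes), and after etoposide 5 were higher and 3 lower (38.1%, beside 33.6%). Without DKO control 1 the count of 3 for untreated cells became 7, and with library weights 15. Up to 6.16% of the counts of Myd88 may come from a gene on the opposite strand, and up to 95.3% of those of Ikbkg, whose value is therefore not described.

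The list of 8 genes on the route from DNA breaks to IKK had 3 genes higher and 4 lower after etoposide in Null cells, and 2 higher and 3 lower in DKO cells, or 87.5% and 62.5% of the list beside 39.6% and 39.3% of all genes. In Null cells 4 in place of 7 were called without Null control 1, Null control 3 or Null etoposide 3. Pidd1, a p53 target whose protein joins the complex that activates IKK in the nucleus, rose by 1.70 in Null and 0.91 in DKO cells on the log2 scale. Its response was smaller in DKO cells (-0.79, limma-trend adjusted p = 0.00804). It was the 1 gene of the list with such a difference (12.5% of the list, beside 9.45% of all genes). After etoposide it was lower in DKO than in Null cells (-1.08). Atm, the kinase that senses double-strand breaks, fell by 0.64 and 0.74, and Erc1, a subunit of the IKK complex, by 0.69 and 0.76, with up to 9.74% of its counts shared with an antisense gene. Pias4, a SUMO ligase of this route, rose by 0.26 in Null and 0.31 in DKO cells. With the GC content and length correction these values were 0.06 and 0.10 and neither was called, and each was also lost in fits without 1 library (Null control 1, 2 or 3 and Null etoposide 2 or 3 for Null cells, DKO control 3 and DKO etoposide 1 for DKO cells). Atm was higher in DKO than in Null cells in both states (0.37 and 0.26), as were Xiap without treatment (0.28, not called without DKO control 2) and Ube2n after etoposide (0.22).

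Among 18 further negative regulators, 10 rose and 2 fell in Null cells, and 10 rose and 1 fell in DKO cells, with medians of 0.38 and 0.33, beside 20.9% higher and 18.7% lower of all genes in Null and 20.2% and 19.1% in DKO cells. Trib1, a pseudokinase gene, had the largest rise of the list in Null cells, by 2.77, and rose by 1.23 in DKO cells. It was higher in untreated DKO than in Null cells (2.21), and its response was smaller in DKO cells (-1.54, limma-trend adjusted p = 0.0188), a call lost without Null control 2, DKO control 2, Null etoposide 1 or 3, or DKO etoposide 1 or 2 (-1.52 to -1.36). Zc3h12a, which encodes the RNase Regnase-1, rose by 1.14 and 1.35, and Traf1 by 1.425 and 0.80. Tnip3, which encodes an A20-binding protein, rose in Null cells (0.47, limma-trend adjusted p = 0.000315) and fell in DKO cells (-0.26, limma-trend adjusted p = 0.0163), the direction that Tnfaip3 also took in each line. The responses of Tnip3 differed by -0.73 (limma-trend adjusted p = 0.000739). The fall in DKO cells was -0.03 after a correction for GC content and length, and it missed the threshold without DKO etoposide 1 (-0.23). Without treatment Tnip3 was higher in DKO cells (0.58), where Tnfaip3 was lower. Btrc encodes the ubiquitin ligase that recognises marked IκBα, and is therefore known to promote NF-κB release although the list of negative regulators counts it. It fell in Null cells (-0.40, or -0.19 and not called with the GC content and length correction) and stood at 0.15 in DKO cells, with a difference of 0.55 between the responses (limma-trend adjusted p = 0.0359). Of this list 1 gene was called higher and 4 lower in the difference between responses (27.8% called, beside 9.45% of all genes), and the 5 calls became 2 without Null control 2, DKO control 2, Null etoposide 1, Null etoposide 3 or DKO etoposide 2, and 3 without Null etoposide 2, DKO etoposide 1 or DKO etoposide 3. That of Btrc was lost in 7 of these fits, at 0.50 to 0.60. Otulin, which encodes a deubiquitinase of linear chains, fell by 0.38 in Null cells and was not called when Null control 2 or 3 or any 1 Null etoposide library was left out (-0.41 to -0.29). Irak3, an inhibitor of Toll-like receptor signalling, was lower in DKO cells without treatment (-0.96) and after etoposide (-0.71), the latter not called when any 1 Null etoposide library, DKO etoposide 1 or DKO etoposide 2 was left out (-0.73 to -0.56). After etoposide Btrc (0.74), Rnf11 (0.33) and Traf1 (-0.49) also differed, and Rnf11 was not called when any 1 Null etoposide library or DKO etoposide 3 was left out.

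Of 28 NF-κB target genes 25 were tested. In each line 17 rose and 4 fell after etoposide, with medians of 0.98 in Null and 1.01 in DKO cells against 0.03 over all genes, and 84% of the list was called in each, beside 39.6% and 39.3% of all genes. Il1b, the gene of interleukin-1β, rose by 5.52 in Null and 7.46 in DKO cells from 4 to 37 counts in a control library, and Cxcl2, a neutrophil chemokine, by 5.11 and 4.33. Bcl2a1b and Bcl2a1d, near-identical survival genes whose reads may be split between copies, fell by 1.08 and 0.84 in Null cells. Up to 57.5% of the counts of Bcl2a1b may come from a gene that overlaps it on the same strand. Birc3, which encodes cIAP2, fell by 0.70 in DKO cells. The responses differed between the lines for 9 targets, 4 higher and 5 lower in DKO cells, beside 3.07% and 6.39% of all genes. Ccl5, a chemokine gene called among the 4, had 3 to 13 counts in Null control, 8 to 9 in Null etoposide, 0 to 2 in DKO control and 28 to 47 in DKO etoposide libraries. The fitted difference between the responses ran from 2.58 to 5.15 over the alternatives, and with at most 13 counts a library outside the last group its size was not resolved. Il1b had a larger response in DKO cells (1.93, limma-trend adjusted p = 0.0451), a call lost in 9 of the 12 fits without 1 library, all but those without Null control 1, Null control 3 or DKO control 2. Junb, a subunit gene of AP-1, had a smaller one (-1.05, limma-trend adjusted p = 0.000557), with up to 5.79% of its counts shared with a gene on the opposite strand. Cd40, a receptor for T cell help, rose by 0.48 in Null cells and fell by 0.95 in DKO cells (-1.43, limma-trend adjusted p = 3.2e-05). Between untreated lines, 9 targets were above and 6 below the Null level in DKO cells, beside 10.9% and 8.39% of all genes, including Ptgs2 at 2.05, Nos2 at -4.90 and Cd83 at -2.14. Ccl2 was also called higher, on 2 counts in each Null control library and 4 to 15 in the DKO control libraries, and the call was lost without Null control 2 or 3 or DKO control 2 or 3. After etoposide 8 targets were higher and 7 lower, beside 15.9% and 17.8% of all genes, and Il1b was at 1.39, Csf1 at -2.22 and Nos2 at -4.54.

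The genes closest in pattern to the member with the widest range in each role were found over the 4 group means of 18065 other genes. For Nfkbiz these were Gm4764, Dmkn and Hr, at root mean square distances of 0.0581, 0.0873 and 0.094 on the log2 scale. For Nfkb2 they were Kcnab3, Gm24572 and Gm45883, at 0.0228, 0.0438 and 0.0449.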

How the data were processed

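The authors deposited raw read counts per gene for the 12 libraries. Per the labels and the study's methods, ribosome-depleted, stranded, paired-end libraries were aligned with HISAT2 (the labels name mm10). The labels name featureCounts and the methods HTSeq as the counter, without a version, and the strand setting is not given in the sources used here. 2 RNA kits were named without saying which sample had which. Symbols, positions and exon lengths came from GENCODE M21.

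The counts were filtered (filterByExpr, edgeR 4.0.16), scaled by TMM and turned into log2 CPM with a prior count of 3. The 4 group means were fitted over all 12 libraries with limma-trend and robust empirical Bayes (limma 3.58.1, R 4.3.3). The study's methods name limma-trend with robust empirical Bayes, and the fit of all 12 libraries together was chosen here. P-values were two-sided and adjusted by Benjamini-Hochberg over 18066 genes, and adjusted p below 0.05 was a call. The comparisons share groups, so that they are not independent. Fold changes are on the scale of log2 CPM with the prior count. No 2 libraries of a group differed by less than counting noise.

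The members and lists were chosen with earlier results of these data known. Named genes were all members and, per list and comparison, up to 2 called genes with the largest rise and up to 2 with the largest fall. Named for completeness beside that rule, after their values were seen, were a few further values of the same genes in other comparisons and Ikbkg. Alternatives were edgeR quasi-likelihood, DESeq2 1.42.0, limma-voom, RLE or no scaling, other filters, a prior count of 1, 2-group fits, each library left out, and a replicate block. A GC content and length correction and library weights were added after the data were seen. Proteins, and promoters of 3 members, were not used here.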

Additional observations from a re-analysis of the deposited data

Results flagged for a closer look

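4 members were picked out because their response to etoposide differed between the lines in a test of the difference itself (limma-trend interaction, Benjamini-Hochberg adjusted over all genes). Subtracting the Null response from the DKO response gave -1.21 on the log2 scale for Tnfaip3, -0.92 for Relb, -0.67 for Nfkb2 and 1.17 for Nfkbiz. For Tnfaip3 the 3 treated libraries lay above the 3 control libraries in Null cells and below them in DKO cells. The same held for Relb, although its difference in DKO cells alone missed the threshold (limma-trend adjusted p = 0.0626). For Nfkb2 and Nfkbiz the treated libraries were higher in both lines, by a smaller step in DKO cells for Nfkb2 and a larger one for Nfkbiz.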

How the results depend on the processing

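Over 119 alternatives for each member, Tnfaip3 kept its direction and its side of the threshold in 119, Nfkbie in 117, Nfkbiz in 116, Nfkbia and Bcl3 in 113 each, Rela in 110, Rel in 108, Nfkb2 in 100, Nfkb1 in 95 and Relb in 82. The number of members called after etoposide was 4 to 7 in Null and 5 to 8 in DKO cells in all alternatives, against 5 and 7, and 6 to 8 for DKO against Null after etoposide, against 8. For DKO against Null in control cells it was 1 in place of 3 with library size alone, with no filter, with only the 2 groups compared and with the replicate block, 8 with library weights, which added Rela (0.65), Nfkbia (0.57), Nfkbie (0.18), Nfkbiz (0.19, limma-trend adjusted p = 0.0194) and Bcl3 (0.67), and 1 to 4 with 1 library left out. For the difference between responses it was 7 in place of 4 with library weights, which added Nfkb1 (0.39), Nfkbie (0.41) and Bcl3 (0.67), and 3 to 5 with 1 library left out. Over all genes, library weights called 11610 in place of 7148 for etoposide in Null cells, 9263 in place of 3490 for the lines in control cells, 10158 in place of 6079 after etoposide and 6053 in place of 1708 between responses, and only the 2 groups compared called 2031 for control cells. Of the calls in control cells 56.6% were higher in DKO cells, and 43.4% with library size alone. Of the calls between responses 32.4% were higher, and 46.3% with library weights. The cause was not tested.

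Small differences changed sign, none of them called except that of Nfkbiz with library weights. For Nfkb1 the response of Null cells was 0.00878 with library size alone, 0.00215 with at least 10 counts in every library, 0.0757 with the GC content and length correction and -0.0537 to 0.0157 with 1 library left out. Its difference in control cells was -0.0688 with library size alone, -0.0443 with the correction, -0.0383 with library weights and -0.0762 to 0.0869 with 1 library left out. The response of Rela in Null cells was -0.0254 with the correction and -0.0838 to 0.496 with 1 library left out, and in DKO cells 0.00977 with library size alone and -0.40 to 0.16. Its other differences were 0.03 to 0.64 in control cells, -0.078 to 0.25 after etoposide and -0.57 to 0.0325 between responses with 1 library left out. The response of Rel in DKO cells was 0.0474 with library size alone, 0.14 with the correction and -0.16 to 0.11 with 1 library left out, its difference in control cells 0.023 with library weights and -0.14 to 0.12, and that between responses -0.25 to 0.00903. Nfkbiz in control cells was at 0.19 with library weights and -0.15 to 0.0937 with 1 library left out.

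Libraries that share a replicate number mostly did not deviate together (correlations of -0.542 to 0.394 over the 4 comparisons, 1 pair above 0.1). Some libraries with different numbers did, such as Null control 3 with DKO control 1 (0.58) and DKO control 1 with DKO etoposide 2 (0.512). Others went opposite ways, such as DKO control 1 with DKO etoposide 3 (-0.494). The numbers were not used as pairs in the main fit, and these correlations cannot tell which libraries were prepared together. The replicate block lost Relb between responses (limma-trend adjusted p = 0.0501), Relb after etoposide (0.084), and Relb (0.0882) and Nfkb2 (0.0593) in control cells. Tnfaip3, with 203 to 932 counts in a library, is the member with the least depth.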
